A study of Rattus norvegicus with 24 samples.

Results

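Arthritic and healthy rats were compared 1 hour after the start of therapy, on 10 of the 24 arrays of the series. The members were 8 arrays of rats with collagen-induced arthritis (CIA; RA in the labels), pooled, and 2 arrays of healthy rats (NOCIA; NORA in the labels). All were female Wistar rats, an outbred stock, and each array held peripheral blood mononuclear cells (PBMC) of a separate rat. CIA was induced by immunisation with bovine type II collagen in adjuvant. The CIA arrays came in 4 arms of 2 arrays each: AP (needle stimulation, which the study calls MS), MTX (an injection of methotrexate), PLA (saline in place of methotrexate) and ANE (isoflurane as anaesthetic and no other therapy). Ether was the anaesthetic for blood sampling in MS, MTX and PLA, while for the NOCIA rats no source used here names one. The NOCIA rats had no arthritis, no needle and no injection, so the disease, the handling and the anaesthetic cannot be told apart in the pooled difference. A baseline of 2 CIA and 2 NOCIA arrays, and a later sampling at 34 days with 8 CIA and 2 NOCIA arrays, share no array with the 1-hour sampling.

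CIA is a model of rheumatoid arthritis in which immunity to cartilage collagen drives joint inflammation. PBMC are the lymphocytes and monocytes of blood that stay above the dense gradient on which granulocytes and red cells sink, and platelets often travel with them. Inflamed joints release cytokines, and blood leukocytes answer through NF-kB, interferon and adenosine signalling, with stress hormones acting on the same cells within an hour of handling or anaesthesia.

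Values are log2 signals of probe sets on the Affymetrix Rat 230 2.0 array, so a difference of 1 is a 2-fold change. Differences are CIA minus NOCIA, with the SE of a limma fit over all 24 arrays, and "called" means a Benjamini-Hochberg adjusted p under 0.05 over the 20690 probe sets tested. In bulk PBMC a cell type with fewer cells and one with less RNA per cell cannot be told apart. The 2 arrays of an arm differed widely in some arms. Over all probe sets, rep 1 minus rep 2 had an SD of 0.88 in AP, 0.73 in ANE, 0.49 in PLA, 0.46 in NOCIA and 0.27 in MTX. AP rep 1, ANE rep 1 and PLA rep 2 stood apart from the other 1-hour arrays on the first principal component, which held 51.5% of the variance, and results below are given with and without them where they matter. The 3' minus 5' signal of the control transcript GAPDH lay at 0.04 and 0.11 in NOCIA and from 0.01 to 0.16 in CIA. That of beta-actin lay at 0.54 and 0.68 in NOCIA and from 0.38 to 0.53 in CIA, all 8 below both NOCIA arrays, and its part in the differences below was not tested.

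The first question was which transcripts set the arthritic rats apart from healthy ones at 1 hour, whatever the therapy. No probe set was called in the pooled comparison, 0 of 20690 (0%), by limma. An unadjusted p under 0.05 was reached by 637 probe sets, 258 higher (1.25%) and 379 lower (1.83%) in CIA, together 3.08% of those tested. The threshold alone would pass a share of 0.05 if no probe set differed. The thresholds in the study's methods, an unadjusted p under 0.05 and a fold change over 2, were passed by 33 (0.159%), 12 higher and 21 lower. The lowest adjusted p was 0.822, for Tfec. The unadjusted 95% interval of a pooled difference reached a median of 0.46 to either side. The count of 33 depended on the arrays included. It was 28 without the AP arm, 80 without the MTX arm, 53 without the ANE arm and 58 without the PLA arm. Among single arrays it rose most without either NOCIA array or AP rep 2, which leaves 1 array in that group. Calls arose only in fits that left an arm with 1 array. Without ANE rep 2 they were Sult1b1 at 1.42 and Rgn, regucalcin, at 1.22. The Sult1b1 value came from ANE rep 1, which lay 5.65 above NOCIA in that fit, with the other arms near NOCIA. Without the arrays that stood apart they were Tfec at 1.39 and Gadd45g at 1.35. These last names were chosen after their values were seen.

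In 479 probe sets (2.32%) the 8 CIA arrays lay on one side of both NOCIA arrays, 285 higher (1.38%) and 194 lower (0.938%). An exact permutation test of 8 against 2 arrays (45 splits) gives a probe set separated in this way p = 0.0444. The share of 2.32% is thus not above that expected without any difference. Among named genes past the methods' thresholds 9 were separated in this way, 4 higher and 5 lower, and none was called. They were chosen for this separation, so that the side on which each array and arm lies is a description and was not tested.

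Ddah1, which breaks down asymmetric dimethylarginine, an inhibitor of nitric oxide synthesis, had the steadiest of these differences across arms. It lay at 5.62 and 5.69 in NOCIA, at 7.36 and 6.85 in AP, 6.90 and 6.85 in MTX, 6.44 and 7.90 in ANE, and 6.76 and 7.05 in PLA. Every CIA array was at least as high as 6.44, and the pooled difference was 1.36 ± 0.37 (SE; limma adjusted p = 0.994, 95% interval 0.57 to 2.15). The arms differed from NOCIA by 1.45 (AP), 1.22 (MTX), 1.51 (ANE) and 1.25 (PLA).

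Prdx5, a peroxiredoxin that removes peroxides, lay at 10.31 and 10.45 in NOCIA and from 10.95 to 12.54 (median 11.17) in CIA. The pooled difference was 1.02 ± 0.30 (SE), with ANE rep 2 highest and the other 7 arrays at or below 11.67. Rictor, the defining subunit of the mTOR complex that phosphorylates Akt, lay at 3.76 and 4.24 in NOCIA and from 4.33 to 5.76 in CIA at 1 of its 2 probe sets. Its pooled difference was 1.04 ± 0.31 (SE), and both ANE arrays (4.33 and 4.38) lay just above NOCIA. The other Rictor probe set differed by -0.13 ± 0.30 (SE), so the probe sets of this gene disagreed. Defb24, a defensin, lay at 5.94 and 6.32 in NOCIA and from 6.38 to 9.68 (median 7.09) in CIA, a difference of 1.38 ± 0.62 (SE) in which AP rep 1 (9.68) and PLA rep 2 (8.60) were highest.

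**Figure D1:**
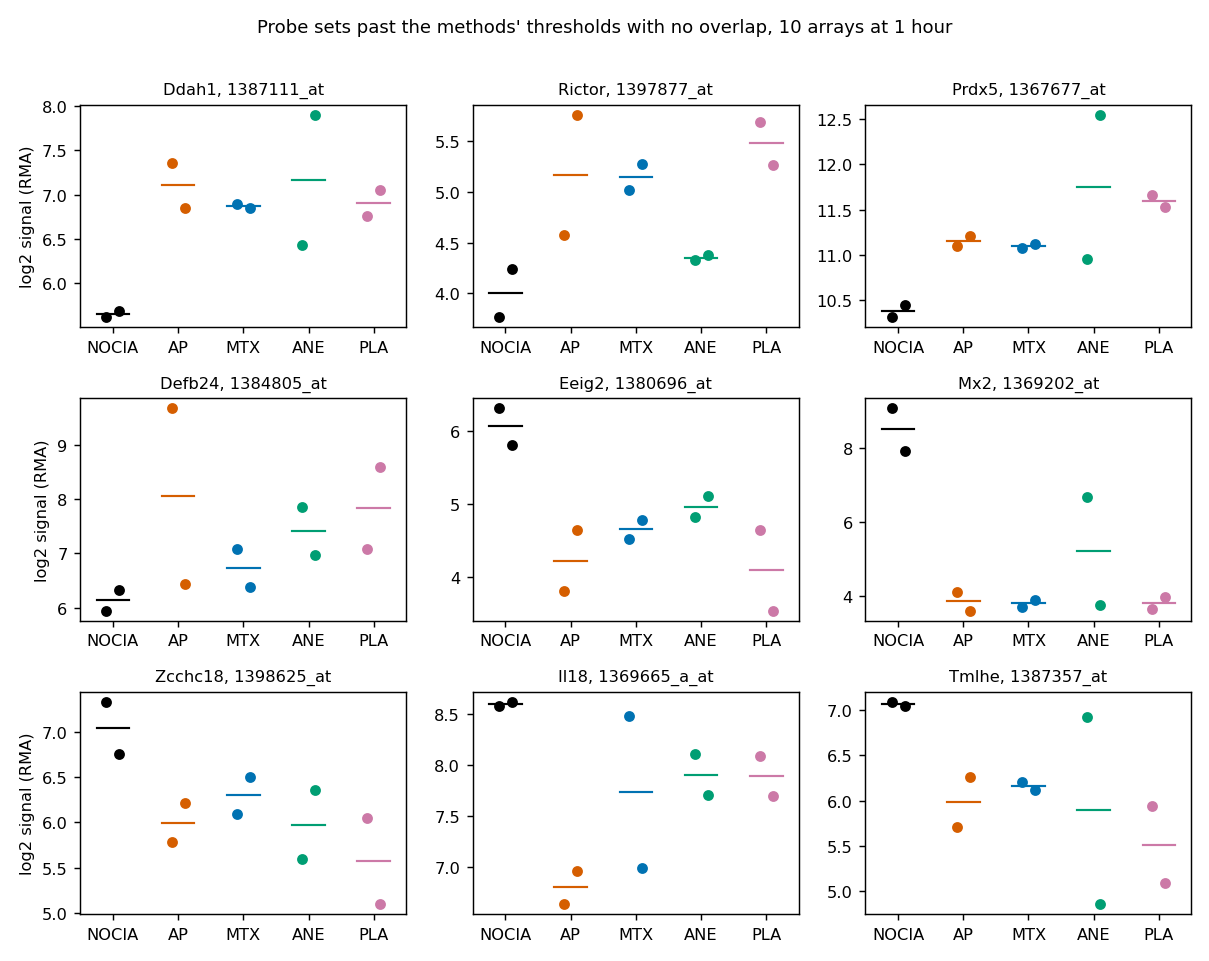
Log2 signal (vertical axes) of the 9 named probe sets past the methods' thresholds in the 10 arrays at 1 hour, by group (horizontal axes); points are arrays, bars the mean of 2. The 8 CIA arrays lie above both NOCIA arrays for Ddah1, Rictor, Prdx5 and Defb24 and below them for the other 5.

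The lowest of the named differences was at Mx2, an interferon-induced antiviral GTPase. It lay at 9.08 and 7.94 in NOCIA, at 6.68 in ANE rep 1, and from 3.61 to 4.11 in the other 7 CIA arrays. The pooled difference was -4.33 ± 0.91 (SE; limma adjusted p = 0.926, 95% interval -6.26 to -2.40). A second Mx2 probe set differed by -0.14 ± 0.38 (SE), with CIA arrays from 6.05 to 7.61. The first probe set took high and low levels within groups elsewhere in the series too: the 2 CIA arrays at baseline lay at 8.28 and 3.66, the 2 NOCIA arrays at 3.87 and 3.93. Mx1, the related gene, differed by -0.63 ± 0.35 (SE).

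Il18, a cytokine of the interleukin-1 family that induces interferon gamma, lay at 8.58 and 8.62 in NOCIA. It was at 6.64 and 6.97 in AP, 8.48 and 6.99 in MTX, 8.11 and 7.70 in ANE, and 8.09 and 7.70 in PLA. All 8 CIA arrays lay below NOCIA, MTX rep 1 just below and AP rep 1 lowest, and the pooled difference was -1.01 ± 0.31 (SE). Eeig2 (CIA 3.53 to 5.11, NOCIA 6.31 and 5.81) differed by -1.58 ± 0.32 (SE), its other probe set by -0.40 ± 0.27 (SE). Zcchc18 (CIA 5.10 to 6.51, NOCIA 7.33 and 6.76) differed by -1.08 ± 0.33 (SE). Tmlhe, an enzyme of carnitine synthesis, lay at 7.09 and 7.04 in NOCIA and from 4.86 to 6.93 in CIA, a difference of -1.18 ± 0.45 (SE).

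**Figure D2:**
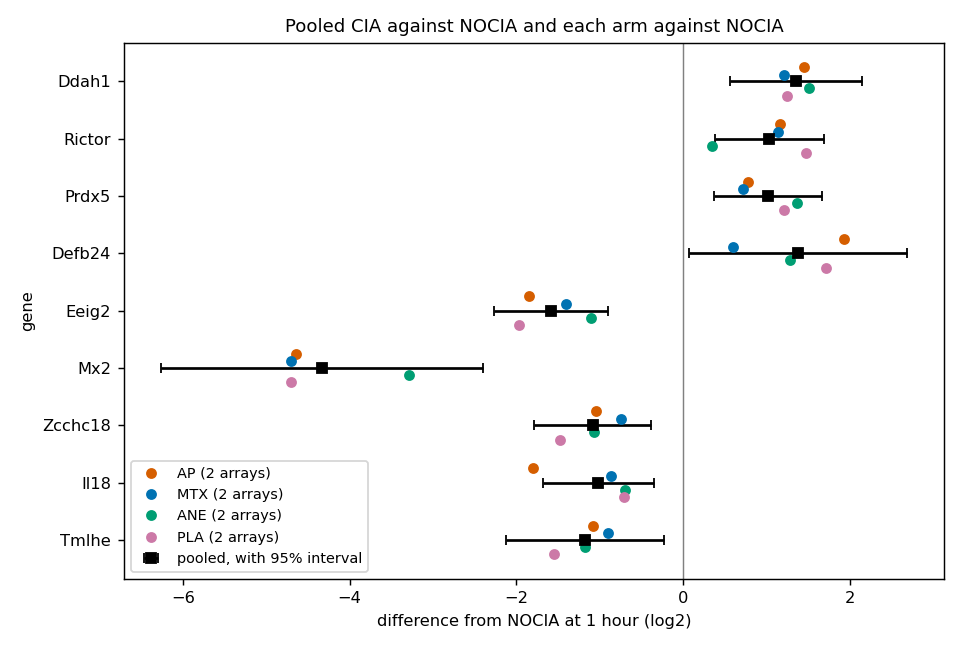
Difference from NOCIA at 1 hour (log2, horizontal axis) of the same 9 genes (vertical axis); black squares are the 8 CIA arrays pooled with the 95% interval, coloured points the 4 arms, each the mean of 2 arrays against the same 2 NOCIA arrays. The choice of genes puts every arm on the side of the pooled value; the arms range from 0.35 (ANE) to 1.48 (PLA) for Rictor and from -4.71 (MTX) to -3.28 (ANE) for Mx2.

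Large differences past the methods' thresholds, without such a separation, were found at major histocompatibility (RT1) class I genes, which present peptides to cytotoxic T cells. RT1-CE10 lay at 12.55 and 12.16 in NOCIA, at 12.79 in ANE rep 1 and 11.94 in PLA rep 1, and from 8.40 to 8.87 in the other 6 CIA arrays. RT1-CE16 had the same high arrays, at 10.13 and 9.73 in NOCIA, 10.35 in ANE rep 1 and 9.96 in PLA rep 1, against 6.62 to 7.17 elsewhere. The pooled differences were -2.77 ± 0.95 and -2.30 ± 0.86 (SE), and the arrays of 1 arm could lie at both levels. Class I genes are near-identical copies that differ between individuals, and these probe sets can bind several of them, so which gene was measured is uncertain. Of 18 class I probe sets, 3 spanned over 3 log2 units among the 10 arrays. At RT1-CE5 the AP and MTX arrays were the high ones, from 11.09 to 11.69 at the first of its probe sets, while NOCIA lay at 10.31 and 9.80 and ANE and PLA from 8.79 to 10.35.

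Tfec, a transcription factor of the MiT family expressed in macrophages, lay at 3.83 and 3.67 in NOCIA and from 3.55 to 5.52 in CIA. It differed by 1.17 ± 0.22 (SE), with ANE rep 1 (3.55) the only CIA array not above NOCIA, and by 0.36 ± 0.40 (SE) at its other probe set. Its values by arm were 1.22 (AP), 1.48 (MTX), 0.21 (ANE) and 1.75 (PLA), each ± 0.28 (SE), and it was among the named genes of AP, MTX and PLA. Cks2, a cofactor of cyclin-dependent kinases, lay at 9.88 and 9.60 in NOCIA and from 9.98 to 11.18 in CIA, all 8 above, a difference of 0.72 ± 0.19 (SE).

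The second question was whether the arms shared one difference from healthy rats. Each arm was set against the same 2 NOCIA arrays, so the 4 comparisons are not independent and their values are given side by side. By limma, AP, MTX and PLA had 0 called probe sets (0%), and ANE had 7 (0.0338%), all higher. These calls use 1 error shared by all groups. With only the 2 compared groups fitted, MTX had 10 calls, PLA 3, and AP and ANE 0. An unadjusted p under 0.05 was reached by 1109 (5.36%) in AP, 342 (1.65%) in MTX, 1506 (7.28%) in ANE and 927 (4.48%) in PLA. The methods' thresholds were passed by 213 probe sets in AP (1.03%), 67 in MTX (0.324%), 278 in ANE (1.34%) and 127 in PLA (0.614%). Calls in AP arose without AP rep 2, a fit that leaves only AP rep 1, which stood apart, and did not arise without AP rep 1. An F test of the difference among the 4 arms called 8 probe sets (0.0387%).

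The calls in ANE included 5 named genes, 4 of them enzymes abundant in liver. Pck1 is the gluconeogenic enzyme phosphoenolpyruvate carboxykinase, Sult1b1 a sulfotransferase, Fmo5 a flavin monooxygenase, Pon1 the paraoxonase of high-density lipoprotein and Osgin1 an oxidative stress-induced growth inhibitor. The 250 bases before the start of Pck1 and of Fmo5 are shown because these 2 of the 5 hold the TGACG core of the cAMP response element, which other genes also carry. It was searched on both strands and is in capitals (here as CGTCA, read from the minus strand). RefSeq promoters of assembly GRCr8 were used, chr3:182348322-182348571 on the + strand for Pck1 and chr2:187910714-187910963 on the + strand for Fmo5.
Pck1: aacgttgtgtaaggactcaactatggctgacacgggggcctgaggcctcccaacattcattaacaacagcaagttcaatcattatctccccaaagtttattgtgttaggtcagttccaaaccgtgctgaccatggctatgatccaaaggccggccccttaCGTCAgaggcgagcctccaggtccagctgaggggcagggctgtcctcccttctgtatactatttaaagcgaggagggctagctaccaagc
Fmo5: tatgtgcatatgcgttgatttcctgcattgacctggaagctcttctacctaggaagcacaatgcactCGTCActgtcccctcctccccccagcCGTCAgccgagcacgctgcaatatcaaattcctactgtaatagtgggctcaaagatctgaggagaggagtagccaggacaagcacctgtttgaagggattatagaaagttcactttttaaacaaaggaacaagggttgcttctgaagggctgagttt
The TGACG core began 90 bases before the start in Pck1 and 183 and 157 bases before it in Fmo5. It was present in 18.2% of the 33469 promoters over the same length. The whole element TGACGTCA, in 1.59% of promoters, was in none of the 5. A match describes the letters only.

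Sult1b1 lay at 8.79 and 5.96 in ANE, at 2.93 and 3.35 in NOCIA, and from 2.98 to 3.31 in the other 6 CIA arrays. It rose by 4.23 ± 0.54 (SE) in ANE against NOCIA (limma adjusted p = 0.00546), and by 2.82 without ANE rep 1. Pck1 lay at 5.55 and 4.99 in ANE, at 3.42 and 3.55 in NOCIA and from 3.24 to 3.86 in the other CIA arrays, a rise of 1.79 ± 0.21 (SE; limma adjusted p = 0.00537). Osgin1 lay at 8.09 and 8.03 in ANE and 6.56 and 6.70 in NOCIA, a rise of 1.43 ± 0.17 (SE; limma adjusted p = 0.00537). The PLA arrays, at 7.31 and 7.29, lay between ANE and the other groups, 0.66 ± 0.17 (SE) above NOCIA and not called.

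Fmo5 (6.23 and 6.77 in ANE against 4.75 and 4.63 in NOCIA) rose by 1.81 ± 0.26 (SE; limma adjusted p = 0.0181), and Pon1 (6.12 and 6.60 against 5.25 and 4.84) by 1.32 ± 0.20 (SE; limma adjusted p = 0.0343). The other 2 calls were at probe sets with no symbol. The F test among arms called these 5 genes, 2 unnamed probe sets and Cdo1, the cysteine dioxygenase. Cdo1 lay at 9.35 and 7.39 in ANE, 4.92 and 4.43 in AP, 5.80 and 5.89 in MTX, 5.98 and 6.50 in PLA, and 5.83 and 6.10 in NOCIA (limma F test adjusted p = 0.019). In the pooled comparison Sult1b1 differed by 1.06 ± 0.42 (SE) and Pck1 by 0.39 ± 0.17 (SE). All 7 ANE calls were lost without either NOCIA array (0 called without rep 1 and 0 without rep 2) and in a fit of the 2 groups alone (0 called). Without ANE rep 1 the count was 117, with all 7 kept, and without ANE rep 2 it was 107, with 6 of the 7 kept.

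**Figure D3:**
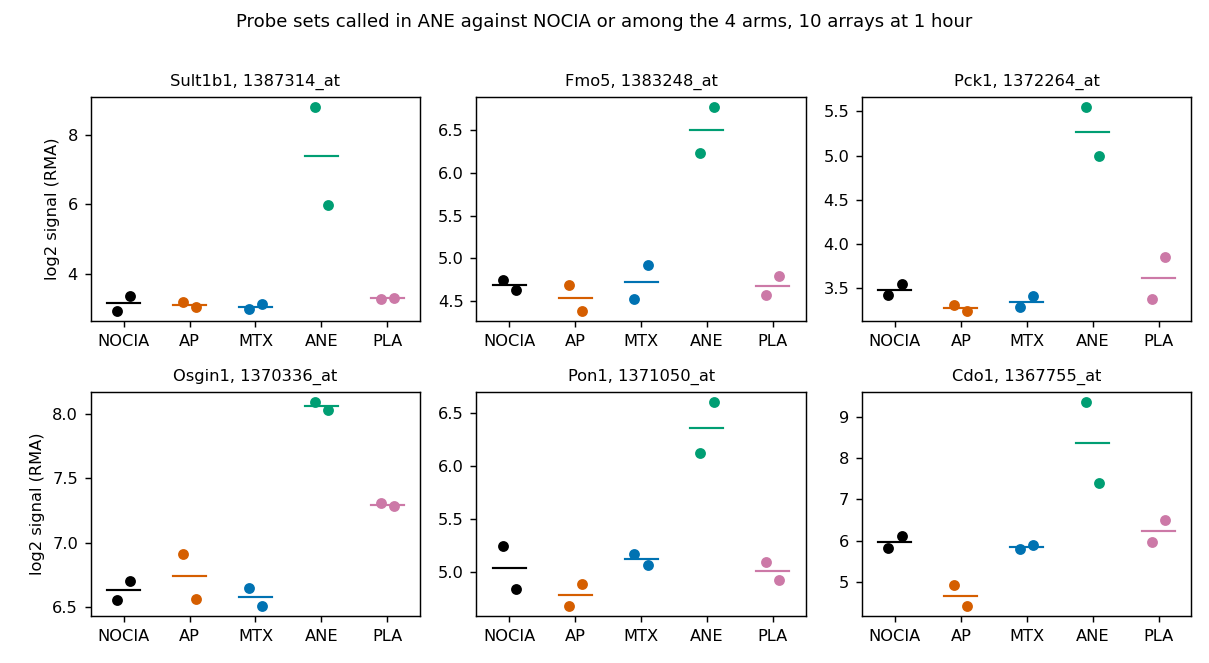
Log2 signal (vertical axes) of the 5 named genes called in ANE against NOCIA and of Cdo1, called among the arms, in the 10 arrays at 1 hour by group (horizontal axes); points are arrays, bars the mean of 2. Both ANE arrays lie above all other arrays in each panel.

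Transcripts of plasma proteins were high in the same 2 arrays. The mean level of the 11 measured liver plasma protein genes, each centred over the 10 arrays, was 2.90 in ANE rep 1 and 0.77 in ANE rep 2, against -0.86 and 0.06 in NOCIA and -1.13 to 0.28 in the other 6 CIA arrays. At the first of its 2 probe sets albumin (Alb) lay at 11.33 and 8.21 in ANE, at 5.82 and 7.18 in NOCIA, and at 8.30 in PLA rep 2. The median difference over the list was 1.97 in ANE, 0.27 in PLA, -0.15 in AP and -0.38 in MTX, and 10 of 11 pooled values were above 0 (median 0.49, -0.10 without NOCIA rep 1, 0.94 without NOCIA rep 2, -0.11 with 4 of 11 above 0 without the arrays that stood apart). None was called, and the part of these transcripts in the ANE calls was not tested.

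Named genes of the arms that passed the methods' thresholds without a call included signalling genes. In MTX, Il1a (interleukin-1 alpha) differed by 1.15 ± 0.19 (SE), Edn1 (endothelin-1) by 1.59 ± 0.32 (SE) and Cflar (an inhibitor of caspase-8) by 1.53 ± 0.33 (SE). Il1a lay at 5.32 and 5.43 in MTX and 4.92 and 5.34 in AP, and at 4.14 to 4.67 in ANE and PLA against 4.21 and 4.24 in NOCIA. In AP, the nuclear receptor Nr4a3 differed by 1.44 ± 0.29 (SE) at 1 probe set and by 1.61 ± 0.50 and 0.32 ± 0.40 (SE) at the others, the plasma selenium carrier Selenop by -1.23 ± 0.26 (SE), Tmem176b by -2.30 ± 0.50 (SE) and the myeloid receptor Siglec5 by -3.89 ± 0.90 (SE). PLA had Batf, a transcription factor of activated lymphocytes, at 1.62 ± 0.41 (SE), Birc3 at 1.30 ± 0.32 (SE), and Jchain, the joining chain of secreted antibodies, at -1.59 ± 0.30 and -0.97 ± 0.24 (SE) in its 2 probe sets. ANE had the transcription factor Sox4 at -2.82 ± 0.63 (SE), with rep 2 (4.46) far below rep 1 (7.20), though its other probe sets ranged up to 0.53. Crem, a cAMP-responsive repressor, was at -1.48 ± 0.38 (SE) in ANE, its 6 probe sets ranging from there to -0.13.

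The third question was whether functional groups or cell types differed as groups. Lists are described by counts and medians over genes, beside all 11057 genes, of which 44.5% had a pooled difference above 0 (median -0.03). An unadjusted p under 0.05 was reached by 1.1% of genes on the higher and 1.67% on the lower side, by limma. No list had a called member. Of the 11057 genes, 142 had all CIA arrays above both NOCIA arrays and 91 had all of them below both. Whether any list held more such members than all genes was not tested.

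Platelet genes lay higher in CIA in the pooled value and T cell genes lower. All 19 measured platelet genes had a difference above 0 (median 0.57), with none at an unadjusted p under 0.05. Gp9, a subunit of the von Willebrand factor receptor, differed by 0.88 ± 0.58 (SE), Vwf itself by 0.88 ± 0.62 (SE) and Itga2b, the integrin that binds fibrinogen, by 0.49 ± 0.32 (SE). Pf4, the chemokine platelet factor 4, had a pooled difference of 0.14 ± 0.13 (SE). The mean centred level was -0.69 and -0.19 in NOCIA, 1.09 in AP rep 1, 0.75 in ANE rep 1 and 0.87 in PLA rep 2, and from -0.74 to 0.08 in the other 5 CIA arrays. Without the arrays that stood apart, which are those 3, the median was 0.10 with 13 of 19 above 0, and without NOCIA rep 1 or rep 2 it was 0.31 or 0.87. The MTX arm, which held none of them, had a median of 0.08.

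None of the 19 measured T cell genes had a difference above 0 (median -0.34; -0.10 with 6 of 19 above 0 without NOCIA rep 1, -0.67 without NOCIA rep 2). Bcl11b, which keeps T cell identity, differed by -0.75 ± 0.36 (SE), Cd8b by -0.62 ± 0.33 (SE), Tcf7 by -0.57 ± 0.38 (SE) and Il7r, the interleukin-7 receptor, by -0.55 ± 0.40 (SE). No member reached an unadjusted p under 0.05. The mean centred level was 0.58 and 0.03 in NOCIA and ranged over the CIA arrays from -0.91 (AP rep 1) to 0.41 (MTX rep 2), so that 5 of 8 CIA arrays lay below both NOCIA arrays. By arm the median was -0.52 in AP, 0.07 in MTX, -0.45 in ANE and -0.53 in PLA. Without the arrays that stood apart it was -0.22, with 0 of 19 above 0.

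**Figure D4:**
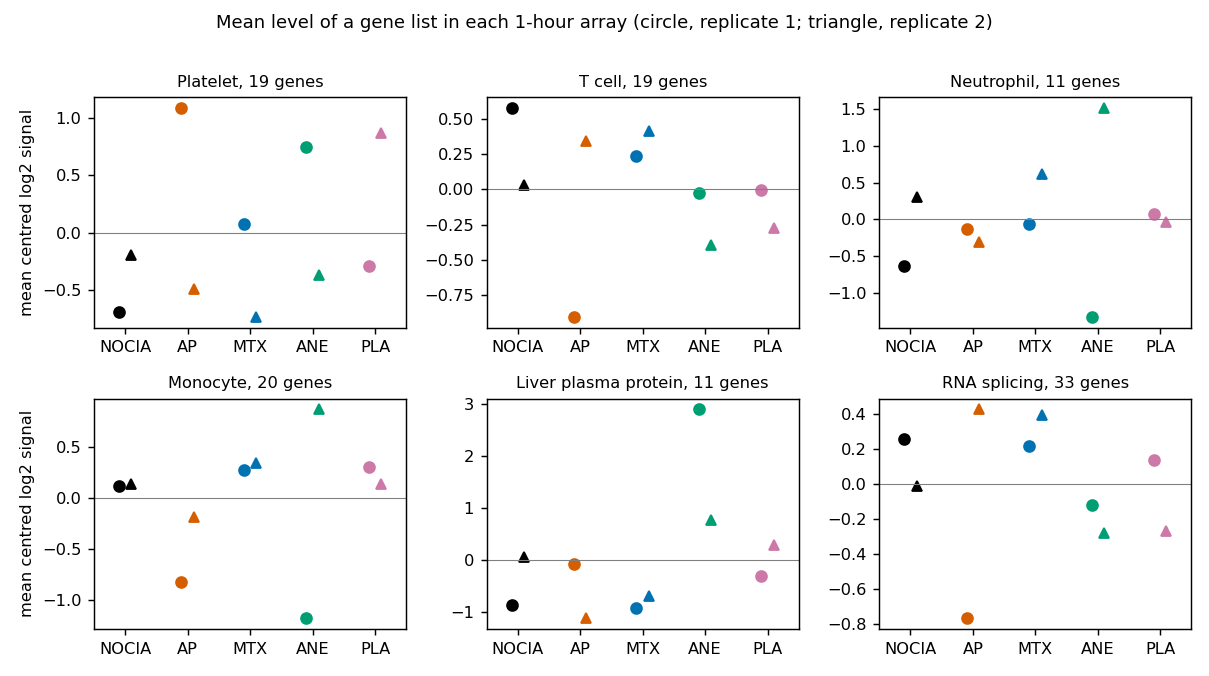
Mean log2 signal of 6 gene lists, each gene centred over the 10 arrays at 1 hour (vertical axes), by group (horizontal axes); circles are rep 1 and triangles rep 2. AP rep 1, ANE rep 1 and PLA rep 2 have the highest platelet levels, AP rep 1 has the lowest T cell (-0.91) and RNA splicing (-0.77) levels, and ANE rep 1 the lowest neutrophil (-1.33) and monocyte (-1.19) levels.

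Myeloid lists differed most between the 2 ANE arrays. Neutrophil genes lay at -0.63 and 0.30 in NOCIA, at -1.33 in ANE rep 1 and 1.52 in ANE rep 2, with 8 of 11 pooled differences above 0 (median 0.12; -0.46 without NOCIA rep 1, 0.61 without NOCIA rep 2, 0.53 with 11 of 11 above 0 without the arrays that stood apart). S100a8 and S100a9, the calgranulins released by activated myeloid cells, differed by 0.06 ± 0.76 and 0.02 ± 0.66 (SE). S100a8 was at 10.56 and 12.03 in NOCIA and from 8.42 (ANE rep 1) to 13.22 (ANE rep 2) in CIA. Monocyte genes had 7 of 20 above 0 (median -0.10), but 12 of 20 (median 0.21) without the arrays that stood apart. Only Ms4a7 among them, at -0.49 ± 0.22 (SE), had an unadjusted p under 0.05. By arm the monocyte median was -0.69 in AP, 0.25 in MTX, -0.27 in ANE and 0.19 in PLA.

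B cell genes had 4 of 11 above 0 (median -0.18; -0.04 without NOCIA rep 1) and NK and cytotoxic genes 10 of 19 (median 0.00, from -0.90 without NOCIA rep 2 to 0.74 without NOCIA rep 1). The NK level was 0.91 and -0.69 in the 2 NOCIA arrays, a gap about as wide as the range of the 8 CIA arrays (-0.77 to 0.82). By arm the NK median was -0.12 in AP, 0.25 in MTX, -0.06 in ANE and -0.54 in PLA. Erythroid genes had 2 of 10 above 0 (median -0.28; -0.93 and 0.14 without NOCIA rep 1 and rep 2). Among mast cell and basophil genes Il3ra, the interleukin-3 receptor, differed by 0.71 ± 0.33 (SE), all 8 CIA arrays above both NOCIA arrays, and Gata2 by 0.39 ± 0.18 (SE), while Cpa3, a granule protease, was at -0.77 ± 0.50 (SE). Of this list 3 of 8 were above 0 (median -0.21), but 5 of 8 (median 0.18) without NOCIA rep 1. Plasma cell (3 of 7 above 0) and dendritic cell genes (3 of 5) had medians of -0.10 and 0.00.

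Most cytokine and inflammation lists had pooled medians near 0. Of 26 cytokine and chemokine genes 14 were above 0 (median 0.01; 0.51 in MTX and -0.14 in ANE, and 0.16 with 16 of 26 above 0 without the arrays that stood apart), with Il1a (0.56 ± 0.15, SE) and Il18 on opposite sides. Il1b differed by -0.01 ± 0.82 (SE), lying at 11.62 and 11.10 in NOCIA and from 8.28 to 13.34 in CIA, with the ANE pair at both ends. Tnf differed by 0.50 ± 0.59, Cxcl1 by -0.82 ± 0.81, Cxcl2 by -0.45 ± 0.69 and Ptgs2, the inducible cyclooxygenase, by -0.12 ± 0.75 (SE). The 95% interval of each of these 5 genes held 0.

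Of the 13 NF-kB subunit and inhibitor genes 10 were above 0 (median 0.22; 0.15 to 0.32 on leaving out each array). Birc3, an NF-kB target that ubiquitinates signalling proteins, differed by 0.69 ± 0.26 (SE), Nfkb2 by 0.46 ± 0.23 (SE) and Relb by 0.31 ± 0.17 (SE). For Nfkb2 and Relb 7 of 8 CIA arrays lay above both NOCIA arrays and 1 below. Toll-like receptor genes had 6 of 12 above 0 (median 0.01), but 9 of 12 (median 0.30) without the arrays that stood apart. Prostaglandin and leukotriene genes had 7 of 17 above 0 (median -0.03), but 13 of 17 (median 0.18) without NOCIA rep 2.

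Interferon-stimulated genes had 9 of 30 above 0 (median -0.15), from -0.56 without NOCIA rep 2 to 0.29 without NOCIA rep 1, so that the sign rested on NOCIA rep 1, whose level (0.53) was the highest of the 10. By arm the interferon median was -0.12 in AP, 0.11 in MTX (20 of 30 above 0), -0.34 in ANE and -0.25 in PLA. Oas1b, which senses double-stranded RNA, differed by -1.19 ± 0.44 (SE), with NOCIA at 5.42 and 4.09 and CIA from 3.07 to 5.48. Eif2ak2, the RNA-activated kinase PKR, differed by -0.48 ± 0.18 (SE). MHC class II genes had 2 of 8 above 0 (median -0.08; 0.16 with 6 of 8 above 0 without the arrays that stood apart), with RT1-Ba below both NOCIA arrays in all 8 CIA arrays at 1 of its probe sets (-0.66 ± 0.40, SE), the others differing by -0.13 to 0.23. By arm the class II median was -0.26 in AP, 0.19 in MTX, -0.24 in ANE and -0.14 in PLA.

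Adenosine and ATP signalling had 12 of 19 genes above 0 (median 0.24; 0.05 without the arrays that stood apart, 0.12 without either NOCIA array). The arms disagreed, with medians of -0.12 in AP (9 of 19 above 0), 0.02 in MTX, 0.37 in ANE and 0.23 in PLA. Adora2b, the low-affinity adenosine receptor, lay at 6.24 and 5.60 in NOCIA and from 5.05 to 5.59 in CIA, a difference of -0.53 ± 0.17 (SE) with all 8 below. Adora2a, the receptor that restrains leukocyte activation, differed by 0.49 ± 0.29 (SE), at 8.28 and 7.55 in NOCIA and 7.89 to 8.99 in CIA, and Ada, adenosine deaminase, by -0.07 ± 0.31 (SE). Dpp4, a dipeptidyl peptidase of the cell surface, was at -0.54 ± 0.25 (SE). Adora3 did not pass the filter on low signals.

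Stress and hormone lists had medians near 0. They were -0.01 for immediate early genes (12 of 26 above 0), -0.15 for cAMP response genes (4 of 13), -0.07 for glucocorticoid response genes (8 of 17), -0.06 for heat shock genes (6 of 15) and 0.11 for circadian clock genes (10 of 18). By arm the clock median was -0.003 in AP, 0.05 in MTX, 0.13 in ANE and -0.01 in PLA. Klf2, a factor of resting lymphocytes and endothelium, was below both NOCIA arrays in all 8 CIA arrays (-0.70 ± 0.41, SE). Fos differed by -0.60 ± 0.39, Egr1 by -0.20 ± 0.34, Per1 by 0.40 ± 0.29, Dbp by -0.06 ± 0.22, Tsc22d3 (the glucocorticoid-induced leucine zipper) by -0.35 ± 0.22 and Fkbp5 by -0.39 ± 0.31 (SE). AP rep 1 had the lowest level of immediate early genes (-0.95) and cAMP response genes (-0.91) among the 10 arrays. Without the arrays that stood apart the medians of immediate early, cAMP and glucocorticoid response genes were 0.16 (20 of 26 above 0), 0.06 (8 of 13) and 0.29 (13 of 17). Leaving out NOCIA rep 1 put the heat shock list at 0.05, and leaving out rep 2 put it at -0.17.

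Of the p53 target and growth arrest genes, Gadd45g, a stress-induced partner of p38 kinase signalling, lay at 7.08 and 7.25 in NOCIA and from 7.38 to 9.43 in CIA. It differed by 0.99 ± 0.36 (SE), and Plk3, a stress-responsive kinase, by 0.44 ± 0.14 (SE), both with all 8 CIA arrays above both NOCIA arrays. In 1 other member all 8 lay below both. The list as a whole had 6 of 13 above 0 (median -0.07; 0.13 without the arrays that stood apart). Cell cycle genes had 3 of 28 above 0 (median -0.17; 0.06 with 17 of 28 above 0 without NOCIA rep 1, -0.50 without NOCIA rep 2), with the proliferation marker Mki67 at -0.76 ± 0.32 (SE), cyclin B1 (Ccnb1) at -0.68 ± 0.20 (SE) and Cks2 on the other side.

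Glycolysis and hypoxia genes had 18 of 22 above 0 (median 0.18; 0.12 to 0.23 on leaving out each array, and 0.18 with 17 of 22 above 0 without the arrays that stood apart). Eno1, enolase, lay at 10.85 and 10.69 in NOCIA and from 10.95 to 11.31 in CIA, a difference of 0.33 ± 0.12 (SE), and Ldha, lactate dehydrogenase, differed by 0.44 ± 0.21 (SE). All 8 CIA arrays lay above both NOCIA arrays for these 2 genes. RNA splicing genes had 2 of 33 above 0 (median -0.16), but 19 of 33 (median 0.02) without the arrays that stood apart. Cytosolic ribosomal protein genes had 2 of 25 (-0.09), but 20 of 25 (0.06) without them. The MTX arm lay on the other side, with 31 of 33 splicing genes (median 0.18) and 24 of 25 ribosomal protein genes (0.09) above 0. Splicing medians were -0.26 in AP, -0.35 in ANE and -0.16 in PLA, and ribosomal protein medians -0.23, -0.12 and -0.14. Respiratory chain genes had 26 of 43 above 0 (median 0.02), with 38 of 43 (0.17) without NOCIA rep 1 and 7 of 43 (-0.13) without NOCIA rep 2. Of the remaining lists, fatty acid oxidation and PPAR target genes had 5 of 19 above 0 (-0.08) and adhesion and matrix genes 17 of 23 (0.16), among them Timp1, an inhibitor of matrix metalloproteases, at 0.51 ± 0.21 (SE). All 8 CIA arrays lay below both NOCIA arrays for 2 of the fatty acid oxidation genes. Among adhesion and matrix genes they lay above both for 1 and below both for 1.

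The last question was whether the 1-hour difference was that of other times. At baseline CIA against NOCIA called 1 probe set (0.00483%), of Sik1, and at 34 days the 8 pooled CIA arrays against NOCIA called 476 (2.3%), 80 higher (0.387%) and 396 lower (1.91%). The difference between the 1-hour and the baseline difference was called for 1 probe set (0.00483%), again Sik1, a salt-inducible kinase that acts on CREB coactivators. This probe set differed by -0.10 ± 0.15 (SE) at 1 hour, with all 10 arrays from 4.93 to 5.46, and by -3.53 ± 0.20 (SE) at baseline, where both NOCIA arrays were high (8.74 and 8.81). The test of the difference gave 3.43 ± 0.25 (SE; limma adjusted p = 8.35e-06), and the other Sik1 probe set differed by -0.23 ± 0.25 (SE) at 1 hour.

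The pooled 1-hour difference differed from the pooled 34-day difference for 11 probe sets (0.0532%), 9 more positive (0.0435%) and 2 more negative (0.00967%) at 1 hour. Rictor, at the first probe set given above, differed by 1.04 ± 0.31 (SE) at 1 hour and -1.76 ± 0.31 (SE) at 34 days, a gap of 2.80 ± 0.44 (SE; limma adjusted p = 0.0329). Cks2 differed by 0.72 ± 0.19 at 1 hour and -1.05 ± 0.19 (SE) at 34 days, and Snap23, a SNARE protein of exocytosis, by 0.69 ± 0.20 and -1.43 ± 0.20 (SE). Tfpi, the inhibitor of tissue factor, was at -0.48 ± 0.16 (SE) at 1 hour and 0.96 ± 0.16 (SE) at 34 days. The other members at 1 hour were Mid2 (0.29 ± 0.10, SE), Snx9 (0.34 ± 0.16, SE), Grhl1 (0.12 ± 0.17, SE), Slc7a1, an arginine transporter (0.10 ± 0.19, SE), Sestd1 (0.09 ± 0.18, SE) and Cars1, the cysteinyl-tRNA synthetase (0.05 ± 0.20, SE), with 34-day differences from -1.70 to -1.14, and LOC100909928 (-0.51 ± 0.23, SE), with 1.46 at 34 days. In Mid2 the 34-day NOCIA arrays lay at 6.55 and 6.56, above the other 22 arrays of the series (4.47 to 5.33). The count of 11 was 1 without NOCIA rep 1 at 1 hour, 2 without NOCIA rep 1 at 34 days, 104 without NOCIA rep 2 at 1 hour and 318 without AP rep 1 at 1 hour, and from 3 to 159 without any other single array.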

How the data were processed

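PBMC were isolated on a Ficoll gradient, and RNA was extracted in a single batch. The deposited values are log2 expression levels which, per the labels, the authors made with RMA in the affy package (no source used here gives their versions). The study's methods also describe MAS5 intensities. Of 31099 probe sets, 20832 map to 1 gene symbol, 436 to several and 9831 to none. After removal of 57 controls, a probe set stayed in if 2 or more arrays put it over their 40th percentile, which left 20690. RMA brings arrays close to a shared distribution (medians here 5.49 to 5.58), which would hide a shift of most transcripts, and the number of arrays limits the precision.

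Fits used limma 3.58.1 (R 4.3.3; lmFit, eBayes), 1 coefficient per group over all 24 arrays, with 12 residual degrees of freedom. The spread between the 2 arrays of a group, pooled over the 12 groups for each probe set, thus sets the error. Every arm therefore has the same SE at a probe set. This error tends to be too small for an arm with a wide pair, such as AP, and too large for MTX. The pooled value weights the 4 arms equally. The threshold for a call was 0.05 after Benjamini-Hochberg adjustment. The methods' thresholds were an unadjusted p under 0.05 and a fold change over 2.

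The rule for named genes took, among calls with 1 symbol and no overlap between groups, the top 15 in each direction (5 in comparisons other than the pooled one). Where fewer were called, probe sets past the methods' thresholds were taken by the size of limma's statistic, and the text does not term them called. Each of 31 lists (11 of cell types) could add up to 6 members, and 20 further genes were eligible. A list used the brightest probe set of each gene. Members, lists and rules were chosen with earlier results of these data known, and the choice among eligible genes was made with their values in view.

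Promoters are the 250 bases before each start in RefSeq (GRCr8). Alternatives were a replicate block, other filters, quantile normalization, limma-trend, array weights, a fit of the compared groups alone, the 8 arrays as 1 group, and leaving out arms or single arrays. A fit without AP rep 1, ANE rep 1 and PLA rep 2 at 1 hour and AP rep 1 at 34 days was added after seeing the data. The fits were tested on simulated data with independent noise of equal spread in every group. These data hold neither pairs of unequal spread nor arrays that stand apart, so the test does not cover them. Python 3.11.15, pandas 2.3.3, numpy 2.4.6, scipy 1.17.1 and matplotlib 3.10.9 were used.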

Additional observations from a re-analysis of the deposited data

Results flagged for a closer look

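Among the 8 CIA arrays at 1 hour, a single array lay far from the others in 4 of 37 named probe sets, by the gap to its nearest neighbour as a share of the range. Such a test picks about 1 in 20 groups by chance. ANE rep 1 was the far array for Mx2 (0.836 of the range), S100a8 (0.535) and S100a9 (0.558), and ANE rep 2 for Prdx5 (0.552).

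The CIA minus NOCIA difference at 1 hour differed by test from that at baseline for Sik1 (by 3.43). It differed from that at 34 days for Rictor (by 2.80), Snap23 (2.12), Mid2 (1.86), Grhl1 (1.82), Cks2 (1.77), Slc7a1 (1.68), Cars1 (1.64), Sestd1 (1.57), Snx9 (1.48), Tfpi (-1.44) and LOC100909928 (-1.97), all on the log2 scale with the 1-hour value first. In Sik1 the 2 NOCIA arrays at baseline, and in Mid2 the 2 NOCIA arrays at 34 days, lay apart from the rest of the series.

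The 4 arms differed among themselves at 1 hour by limma's F test for Pck1 (adjusted p = 0.00334), Sult1b1 (0.00846), Osgin1 (0.00876), Fmo5 (0.0141), Pon1 (0.0161), Cdo1 (0.019) and 2 probe sets with no symbol (both 0.0384).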

How the results depend on the processing

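The pooled comparison called 0 probe sets under 21 of its 23 alternatives and 2 under the other two, without ANE rep 2 and without the arrays that stood apart (0 to 2 on leaving out each array). Counts of calls in the other comparisons moved more. Leaving out each array gave 0 to 123 in AP, 0 in MTX, 0 to 117 in ANE, 0 to 1 in PLA, 6 to 136 among the arms, 1 to 24 against baseline and 1 to 318 against 34 days; an arm left with 1 array was assumed to vary like the other groups. Without the arrays that stood apart the counts were 5 in AP, 7 in MTX, 899 in ANE, 3 in PLA, 1175 among the arms, 15 against baseline and 2204 against 34 days. A fit of the compared groups alone called 10 in MTX, 0 in ANE, 3 in PLA, 1 among the arms and 1 against 34 days. Array weights gave 4 in MTX, 2 in ANE, 2 among the arms, 2 against baseline and 153 against 34 days. Quantile normalization gave 4 in ANE and 148 against 34 days, and the 60th percentile filter 2 in ANE and 3 among the arms. The cause of these shifts was not tested. The replicate number, added as a block, left 7 calls against 34 days and 0 in the pooled comparison. Deviations of same-numbered arrays correlated from -0.76 to 0.54. They include the arrays that stood apart, so they cannot show whether the numbers pair the samples.

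List medians changed sign in 94 of 744, across 23 of the 31 lists. T cell, platelet, NF-kB, circadian clock, adenosine, fatty acid oxidation, glycolysis and adhesion lists kept theirs under all 24 alternatives run. A single arm was not among these alternatives. The arm median lay on the other side for T cell genes in MTX (0.07) and adenosine genes in AP (-0.12). It also did so for clock genes in AP (-0.003) and PLA (-0.01). With 2 healthy rats, each pooled value rests on the level of either NOCIA array, and the arms' differences from NOCIA share both.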
